A study of Mus musculus with 12 samples.

Results

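The heat shock proteins of muscle are given here as 10 protein-coding genes, found by matching the Ensembl identifier of each row of the count table to its symbol in the GENCODE annotation of GRCm38. They are 10 of the 55487 genes listed. The inducible Hsp70 genes Hspa1a and Hspa1b, the Hsp70 cochaperone gene Dnajb1, and the small heat shock protein genes Hspb1, Cryab, Hspb8, Hspb2, Hspb3, Hspb6 and Hspb7 make up the set. None was lost to the filter for low counts, so 10 of 10 were tested. RNA was sequenced from C2C12 cells, an established line of mouse myoblasts that fuse into myotubes when serum is lowered. Every culture was differentiated for 5 days in DMEM with 2% horse serum. The control group (6 libraries, numbered 1 to 6) then spent 24 h in DMEM with 4% horse serum, and the STEM group (6 libraries, numbered 7 to 12) spent 24 h in DMEM with 4% STEM, a cell-free secretome made from human embryonic stem cells that had partly differentiated. Both media held penicillin and streptomycin. STEM took the place of horse serum, so adding the one and removing the other cannot be told apart. The labels do not say whether the 6 libraries of a group came from separate cultures, and p-values measure the spread between these libraries only.

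Heat shock proteins are chaperones that hold or refold other proteins. Hsp70 binds unfolded stretches of a client and releases them in a cycle driven by ATP, J-domain proteins such as Dnajb1 bring clients to Hsp70 and start that cycle, and small heat shock proteins bind unfolding clients without using ATP. Genes of the inducible chaperones are switched on by the heat shock factor HSF1, which binds heat shock elements in their promoters. Several small heat shock proteins are abundant in muscle without any stress, where they sit on desmin, filamin and the Z-disc, and some of them are switched on when myoblasts differentiate.

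Library totals ran from 13285472 to 18254882 counts in horse serum and from 14909485 to 24536264 with STEM. Levels are given in CPM, each count divided by its library's TMM-normalized total and put on the usual CPM scale. The cultures had the markers of myotubes: all 23 markers on a fixed list were detected, and their summed level was between 31100 and 34000 CPM in horse serum libraries 1 to 5 and between 26100 and 33200 CPM in STEM libraries. Horse serum library 6 stood apart, with a sum of 17500 CPM and all 23 markers below the other 5 horse serum libraries. Of 8 markers of dividing cells, 5 were above the other horse serum libraries in library 6 (sum 1060 CPM against 626 to 960 CPM), and all 5 markers of myoblasts and reserve cells were below them (335 CPM against 451 to 512 CPM). The same markers moved with STEM. Those of myoblasts and reserve cells summed to between 252 and 310 CPM in the STEM libraries, with 4 of 5 called lower. Those of dividing cells summed to between 471 and 581 CPM, with 6 of 8 called lower. Both counts were the same without library 6. Of the 23 myotube markers, 3 were called higher and 3 lower with STEM, and without library 6, 3 higher and 14 lower. Of all genes tested, 18.9% were called higher and 17.4% lower, and 26.3% and 24.5% without library 6. The part of these markers in the results on the heat shock genes was not tested. Markers of leukocytes, endothelial cells and adipocytes summed to at most 5.88 CPM in any library. Of 5 neuronal markers, Rbfox3 and Elavl4 had no count in any library, and the rise of the sum from between 1.03 and 5.78 CPM to between 17.6 and 22.6 CPM with STEM was that of the tubulin gene Tubb3. The edgeR tests of the 10 genes, the order of their levels and their likeness to each other are given with and without library 6.

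Per kilobase of exon, the 10 genes differed widely in level. Cryab, which encodes the desmin-binding alpha B-crystallin, was the most abundant with 126 ± 16.3 CPM per kb in horse serum and 134 ± 10.5 CPM per kb with STEM (SD, n = 6 each). It was followed in horse serum by Hspb8 (median 110, range 70.7 to 123), Hspb1 (84.0 ± 3.29) and Hspb2 (78.9 ± 9.40 CPM per kb). The ranges over the 6 horse serum libraries overlapped between each of these neighbours, although Cryab was above Hspb8 in 6 of 6 libraries. A gap without overlap separated Hspb2 from Dnajb1 (27.8 ± 1.92) and Hspb7 (27.4 ± 10.8 CPM per kb), whose ranges overlapped. Hspb3 had 16.9 ± 6.07 CPM per kb. The lowest levels were those of Hspa1b (4.67 ± 1.94), Hspb6 (1.89 ± 0.421) and Hspa1a (1.39 ± 0.550 CPM per kb), and Hspa1b lay above Hspb6 without overlap. Reads from sequence shared by Hspa1a and Hspa1b, or by Cryab and Hspb2, may have been left uncounted, so the levels of these genes may be too low. With STEM the order of the means was the same as over all 6 horse serum libraries. Without library 6 it was not, since Hspb7 (31.8 ± 2.06 CPM per kb, SD, n = 5) lay above Dnajb1 (27.2 ± 1.17) in libraries 1 to 5 without overlap, while with STEM Dnajb1 had the higher mean and their ranges overlapped. The other 8 genes kept their places in libraries 1 to 5. For comparison, the constitutive Hsp70 gene Hspa8 had 256 CPM per kb in horse serum.

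**Figure D1:**
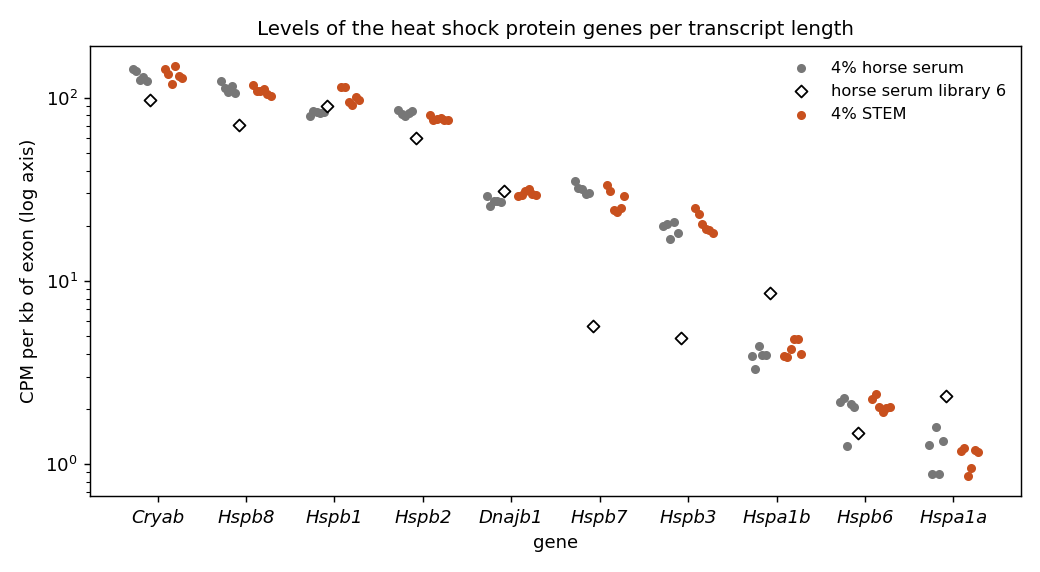
CPM per kb of exon (log axis) of each gene in each library, with horse serum libraries in grey, STEM libraries in orange and horse serum library 6 as an open diamond. The levels fall from 126 CPM per kb for Cryab to 1.39 CPM per kb for Hspa1a in horse serum, and library 6 lies far below the rest for Hspb7 and Hspb3 and above the rest for Hspa1b and Hspa1a.

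With all 12 libraries, Hspb1 rose with STEM and the other 9 genes did not pass the test. Thus 1 of 10 was called higher and 0 of 10 lower, where 18.9% of the 14175 genes tested were called higher and 17.4% lower (edgeR's quasi-likelihood test, adjusted p of 0.05 or less). At an unadjusted p under 0.05, Hspb1 and Dnajb1 were higher and 0 of 10 lower, against 23.9% and 21.8% of all genes. DESeq2 called 1 of the 10 and 29.3% of the genes to which it gave an adjusted p, and limma-voom called 1 of the 10 and 35.1% of all genes. The median log2 fold change of the 10 genes was 0.07, and that of all genes tested was 0.01. Of the 10, Hspb1 alone had groups without overlap, against 17.2% of all genes tested. Without library 6, Hspb1 and Dnajb1 were called higher and Hspb2 was called lower. In that comparison 26.3% of 14267 tested genes were called higher and 24.5% lower. Libraries 1 to 5 did not overlap the STEM libraries for Hspb1 and Dnajb1, against 33.3% of all genes. In each of these counts the share of the 10 genes lay below that of all genes. However, 1 gene is 10% of the set and the counts reuse the same values, so no difference from all genes is drawn. In bulk RNA, fewer cells of a kind and less RNA per cell cannot be told apart, which holds for every value given here.

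**Figure D2:**
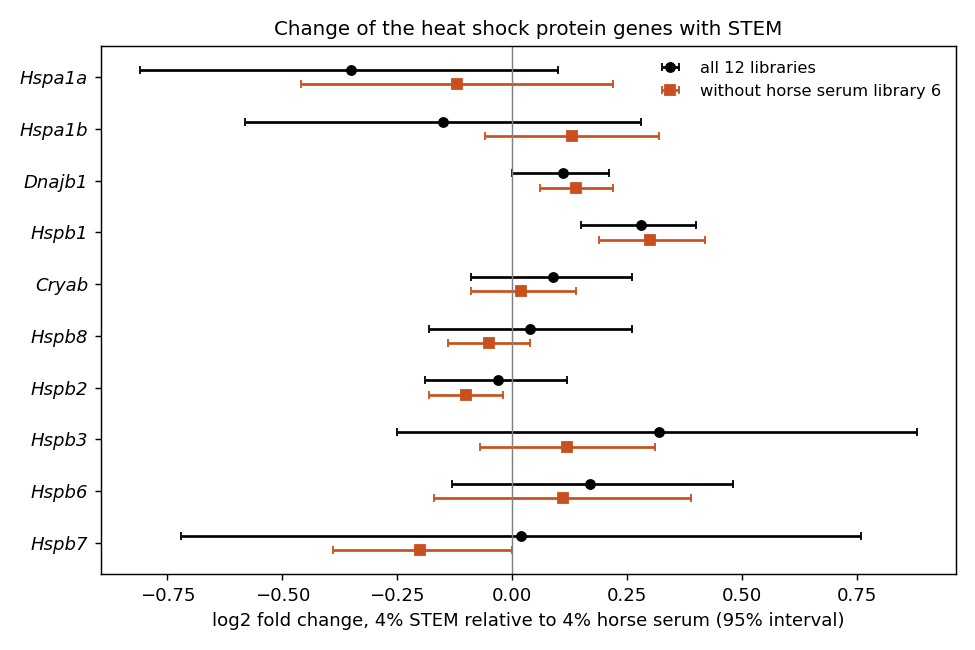
Log2 fold change of each gene, STEM relative to horse serum, with its 95% interval, from all 12 libraries (black circles) and without horse serum library 6 (orange squares). Hspb1 lies above 0 both ways, at 0.28 and 0.30, and the wide intervals of Hspb7 and Hspb3 narrow when library 6 is left out.

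Hspb1 encodes a widely expressed small heat shock protein that binds actin and intermediate filaments (ENSMUSG00000004951, chromosome 5, 135887919 to 135889563 of GRCm38, plus strand). Its level was 82.2, 86.2 and 92.7 CPM as the lowest, median and highest horse serum library, and 94.3, 102 and 117 CPM with STEM. Every STEM library lay above every horse serum library. The mean rose from 86.6 ± 3.39 CPM to 105 ± 10.1 CPM (SD, n = 6), which is 1.21-fold. On the log2 scale the change was 0.28 with a standard error (SE) of 0.0588 and an adjusted p of 0.00185 in edgeR. An exact permutation test over the libraries gave p = 0.00216 (two-sided), the smallest that 6 against 6 allow, and gave between 0.0281 and 0.961 for the other 9 genes, unadjusted over 10 tests. Without library 6 the log2 fold change of Hspb1 was 0.30 (SE 0.0548, adjusted p = 0.000149 in edgeR). STEM libraries 7 and 8 had the highest values, 117 CPM each, and without both of them, an alternative chosen after seeing the data, it was 0.18 (SE 0.0497, adjusted p = 0.0151 in edgeR).

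The 250 bases before the start of Hspb1 (chr5:135887669-135887918, plus strand), and of 4 other genes below, were taken from the RefSeq promoter table of GRCm38.p6, which held windows for 8 of the 10 genes and none for Cryab and Hspb2. They are shown because Hspb1 is the gene called both ways. Capitals mark matches to a pair of heat shock element units, GAANNTTC or TTCNNGAA, each of which reads the same on both strands.
Hspb1: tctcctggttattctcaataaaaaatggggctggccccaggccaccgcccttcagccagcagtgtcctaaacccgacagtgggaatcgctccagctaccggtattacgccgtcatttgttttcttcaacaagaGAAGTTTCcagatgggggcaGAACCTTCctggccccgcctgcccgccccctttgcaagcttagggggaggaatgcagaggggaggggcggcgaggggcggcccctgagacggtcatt
This window held 2 such matches, the nearer starting 97 bases before the start of transcription. Of 32851 promoter windows of this length in the table, 12.8% held at least 1 match. A match to these letters describes the sequence only.

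Hspa1a and Hspa1b encode nearly identical stress-inducible Hsp70 proteins and lie 9951 bases apart on chromosome 17 (Hspa1a, ENSMUSG00000091971, 34969190 to 34972156; Hspa1b, ENSMUSG00000090877, 34956436 to 34959238, both on the minus strand and each in 1 exon). Of all stretches of 150 bases in their annotated transcripts, the length of a read in the study, 38.1% of those of Hspa1a also occur in Hspa1b and 40.5% the other way. A read pair that lies within such shared sequence cannot be given to either gene, so their separate counts are uncertain. Their promoters, printed to show how alike these neighbours are, differed at 3 of 250 bases, C44T, T47C and T249G, with the Hspa1a base first, the Hspa1b base last and positions counted from 1 at the 5′ end (Hspa1a, chr17:34972157-34972406, and Hspa1b, chr17:34959239-34959488, minus strand). Capitals again mark the heat shock element pair, which starts 104 bases before the start in both.
Hspa1a: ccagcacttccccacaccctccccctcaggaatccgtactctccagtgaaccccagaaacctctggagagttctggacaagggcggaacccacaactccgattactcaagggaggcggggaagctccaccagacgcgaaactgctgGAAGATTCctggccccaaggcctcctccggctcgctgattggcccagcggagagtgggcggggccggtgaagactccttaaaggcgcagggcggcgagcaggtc
Hspa1b: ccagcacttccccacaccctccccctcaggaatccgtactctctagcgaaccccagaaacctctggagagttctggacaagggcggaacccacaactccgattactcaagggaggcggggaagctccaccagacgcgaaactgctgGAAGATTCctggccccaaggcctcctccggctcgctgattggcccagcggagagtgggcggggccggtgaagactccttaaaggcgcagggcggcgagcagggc
Each also held a CCAAT box (CCAAT on either strand) 67 bases before the start, a motif found in 33.8% of all windows.

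Hspa1a was low in both groups, with 2.62 to 4.72 CPM in horse serum libraries 1 to 5, 7.01 CPM in library 6, and 2.56, 3.47 and 3.65 CPM as the lowest, median and highest STEM library. Hspa1b had 9.25 to 12.3 CPM in libraries 1 to 5, 24.0 CPM in library 6, and 10.8, 11.5 and 13.5 CPM with STEM. For both genes library 6 was the highest of all 12 libraries, at 1.98 and 2.20 times the mean of libraries 1 to 5, and the other 11 libraries overlapped. The log2 fold change with STEM was -0.35 for Hspa1a (95% interval -0.81 to 0.10, adjusted p = 0.217 in edgeR) and -0.15 for Hspa1b (-0.58 to 0.28, adjusted p = 0.599 in edgeR). Without library 6 they were -0.12 (-0.46 to 0.22) and 0.13 (-0.06 to 0.32), so that the sign of Hspa1b turned, with adjusted p of 0.563 and 0.259 in edgeR. Summed into 1 feature, the pair had 17.2 ± 6.97 CPM (SD, n = 6) in horse serum, 15.2 ± 1.18 CPM (SD, n = 6) with STEM, and a log2 fold change of -0.19 (SE 0.195, adjusted p = 0.475 in edgeR), or 0.07 without library 6. A gene annotated on the other strand, Gm20481, shares 564 of the 2967 exon bases of Hspa1a and had at most 1 count in any library.

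Dnajb1, whose protein stimulates the ATP cycle of Hsp70, lies on chromosome 8 (ENSMUSG00000005483, 83608193 to 83612653, plus strand). It had 82.2 to 92.6 CPM in horse serum libraries 1 to 5 and 99.7 CPM in library 6. With STEM the lowest, median and highest values were 93.6, 94.4 and 102 CPM. Every STEM library was above libraries 1 to 5, and library 6 lay among the STEM libraries. The mean was 89.2 ± 6.14 CPM in horse serum against 96.1 ± 3.27 CPM with STEM (SD, n = 6). The change of 0.11 on the log2 scale (SE 0.0483, adjusted p = 0.101 in edgeR) did not pass the test. Without library 6 it was 0.14 (SE 0.0399, adjusted p = 0.00636 in edgeR), a rise of 1.10-fold.

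Cryab (ENSMUSG00000032060, chromosome 9, 50751325 to 50756636, plus strand) and Hspb2 (ENSMUSG00000038086, chromosome 9, 50751078 to 50752354, minus strand) are neighbours on opposite strands. Their annotated exons share 252 bases, which are 17.0% of the exon length of Cryab and 30.2% of that of Hspb2. The kit marks strand, and the sources used here do not say whether the counting used it, so reads from the shared bases may be uncertain. Cryab had 182 to 211 CPM in horse serum libraries 1 to 5, 143 CPM in library 6, and 176, 196 and 219 CPM as the lowest, median and highest STEM library. Apart from library 6 the groups overlapped throughout. Its log2 fold change was 0.09 (95% interval -0.09 to 0.26, adjusted p = 0.425 in edgeR), and 0.02 (-0.09 to 0.14) without library 6.
Hspb2, which encodes a muscle small heat shock protein that binds the myotonic dystrophy kinase, had 66.5 to 71.1 CPM in libraries 1 to 5, 50.1 CPM in library 6, and 62.8, 63.5 and 67.3 CPM with STEM. Of the STEM libraries, library 7 reached into the range of libraries 1 to 5 and the other 5 lay below it. The log2 fold change was -0.03 with all libraries (95% interval -0.19 to 0.12, adjusted p = 0.733 in edgeR). Without library 6 it was -0.10 (SE 0.0391, adjusted p = 0.0350 in edgeR), a level 0.931 times that of libraries 1 to 5. With library quality weights in limma-voom, which keep library 6 at a weight of 0.111, Hspb2 did not pass (adjusted p = 0.0685).

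Hspb8, whose protein works with the cochaperone Bag3 and Hsp70 in the turnover of damaged filamin (ENSMUSG00000041548, chromosome 5, 116408491 to 116422864, minus strand), had 207 to 240 CPM in libraries 1 to 5 and 138 CPM in library 6. With STEM it had 199, 212 and 228 CPM as the lowest, median and highest. The STEM libraries overlapped libraries 1 to 5. The log2 fold change was 0.04 (95% interval -0.18 to 0.26, adjusted p = 0.771 in edgeR), and -0.05 (-0.14 to 0.04, adjusted p = 0.363 in edgeR) without library 6.

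Hspb3 and Hspb7 are small heat shock protein genes expressed mainly in skeletal and heart muscle. Hspb3, the partner of Hspb2 in a muscle complex (ENSMUSG00000051456, chromosome 13, 113662896 to 113663676, minus strand), had 13.3 to 16.3 CPM in libraries 1 to 5 and 3.79 CPM in library 6. With STEM it had 14.2, 15.4 and 19.6 CPM as the lowest, median and highest. Library 6 was far below every other library. STEM libraries 7 and 8 lay above the range of libraries 1 to 5, and STEM libraries 9 to 12 lay within it. Hspb7, whose protein binds filamin C (ENSMUSG00000006221, chromosome 4, 141420779 to 141425311, plus strand), had 82.4 to 96.9 CPM in libraries 1 to 5 and 15.6 CPM in library 6. With STEM it had 66.0, 74.5 and 92.3 CPM. Again library 6 was the lowest of the 12, and of the STEM libraries 7 and 8 lay in the range of libraries 1 to 5 while 9 to 12 lay below it.
The log2 fold change of Hspb3 was 0.32 (95% interval -0.25 to 0.88, adjusted p = 0.370 in edgeR), and 0.12 (-0.07 to 0.31, adjusted p = 0.287) without library 6. That of Hspb7 was 0.02 (-0.72 to 0.76, adjusted p = 0.972 in edgeR), and -0.20 (SE 0.0887, adjusted p = 0.0857 in edgeR) without library 6. Neither gene passed the test either way, and leaving out library 6 turned the sign of Hspb7.

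The promoters of Hspb3 (chr13:113663677-113663926, minus strand) and Hspb7 (chr4:141420529-141420778, plus strand) are shown because these genes varied most over all 12 libraries. That order rests on library 6, and without it Hspa1a and Hspb6 varied more than either. Capitals mark the heat shock element pair and a MEF2 box, the motif of a muscle transcription factor family.
Hspb3: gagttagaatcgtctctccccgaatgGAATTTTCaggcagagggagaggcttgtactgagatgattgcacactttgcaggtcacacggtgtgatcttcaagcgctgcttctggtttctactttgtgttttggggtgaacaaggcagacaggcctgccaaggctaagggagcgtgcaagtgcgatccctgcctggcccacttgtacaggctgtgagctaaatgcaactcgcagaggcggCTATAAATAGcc
Hspb7: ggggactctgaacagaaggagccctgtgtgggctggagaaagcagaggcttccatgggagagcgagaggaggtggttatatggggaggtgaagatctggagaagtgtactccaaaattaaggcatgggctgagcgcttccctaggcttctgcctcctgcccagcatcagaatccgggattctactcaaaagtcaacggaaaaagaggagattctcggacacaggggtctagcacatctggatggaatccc
The Hspb3 window held a heat shock element pair starting 224 bases before the start and a MEF2 box starting 12 bases before it, which overlaps a TATA box (TATAAA on either strand). A MEF2 box was found in 2.92% of all windows and a TATA box in 12.4%. The Hspb7 window held none of the motifs searched, which covered the E-box CAGCTG as well (4271 of the 32851 windows).

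Hspb6, which encodes a small heat shock protein known from smooth and striated muscle (ENSMUSG00000036854, chromosome 7, 30552178 to 30555443, plus strand), was near the low end of the set at 41 to 128 counts per library. It had 2.89, 4.79 and 5.24 CPM as the lowest, median and highest horse serum library, and 4.45, 4.72 and 5.53 CPM with STEM. Libraries 3 and 6 were the low ones, and the other 10 overlapped. The log2 fold change was 0.17 (95% interval -0.13 to 0.48, adjusted p = 0.364 in edgeR), and 0.11 without library 6. Exons of Lin37 and Proser3 on the other strand overlap those of Hspb6 by 3 and 122 of 2299 bases.

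**Figure D3:**
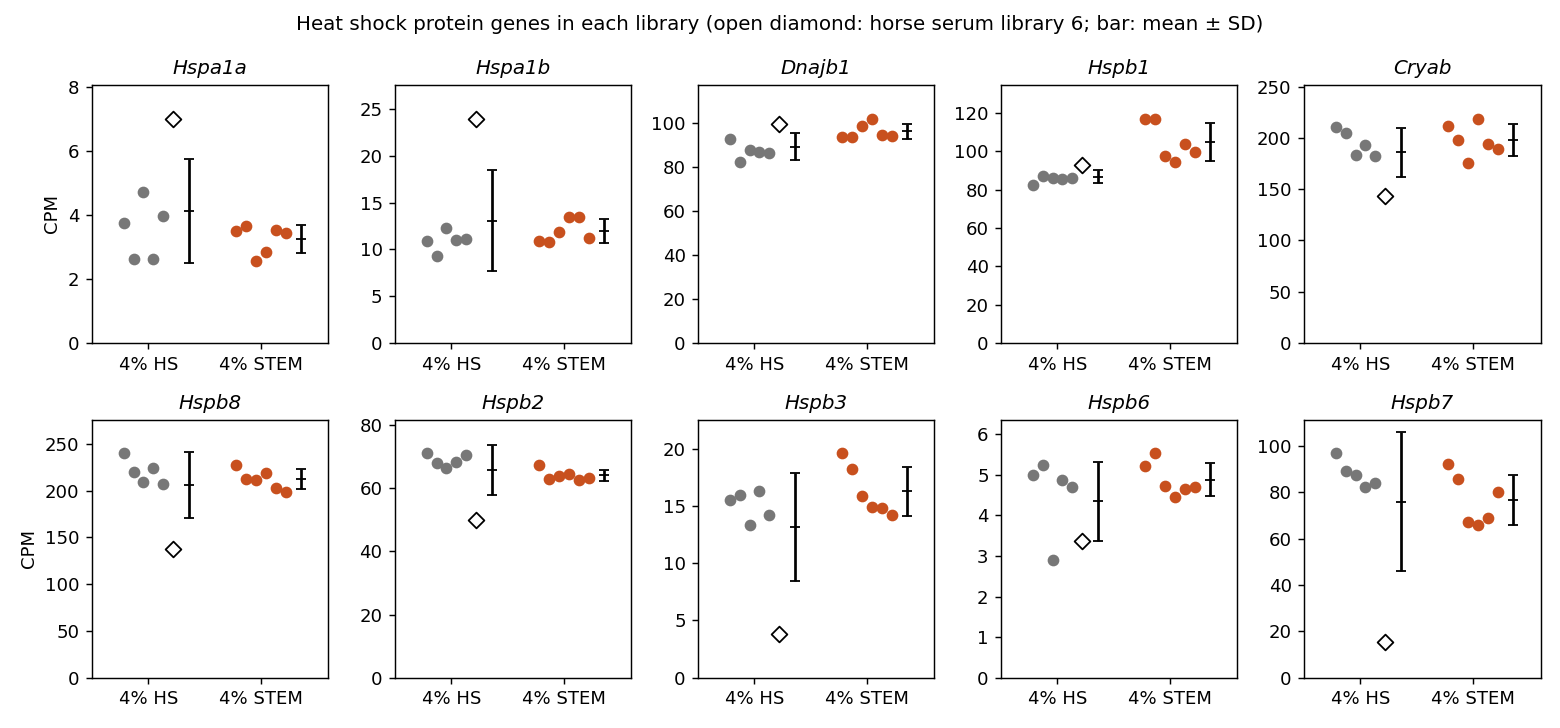
CPM of each gene in each library, with horse serum (HS) in grey, STEM in orange, horse serum library 6 as an open diamond, and mean ± SD over the 6 libraries of a group as a bar. For Hspb1 all STEM libraries (94.3 to 117 CPM) lie above all horse serum libraries (82.2 to 92.7 CPM), and for Hspb7 library 6 (15.6 CPM) lies apart from the other 11.

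Horse serum library 6 differed from the mean of libraries 1 to 5 by more than the STEM mean did for 9 of 10 genes. Hspb1 was the exception (differences in log2 CPM). A single library scatters more than a group mean, and the same count over all genes was not made, so nothing is drawn from it. Library 6 was above all of libraries 1 to 5 for 4 of the 10 genes, the inducible Hsp70 pair, Dnajb1 and Hspb1. It was below all of them for 5, Cryab, Hspb8, Hspb2, Hspb3 and Hspb7, and within their range for Hspb6. Over all genes tested it was above libraries 1 to 5 for 35.8% and below them for 33.1%. Relative to the mean of libraries 1 to 5 its level ranged from 0.177 times for Hspb7, 0.251 times for Hspb3, 0.626 times for Hspb8, 0.728 times for Hspb2 and 0.735 times for Cryab to 1.09 times for Hspb1, 1.14 times for Dnajb1, 1.98 times for Hspa1a and 2.20 times for Hspa1b. The part of the myotube and cell division markers in these differences was not tested. It is 1 library, and its difference from the others has no replicate.

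**Figure D4:**
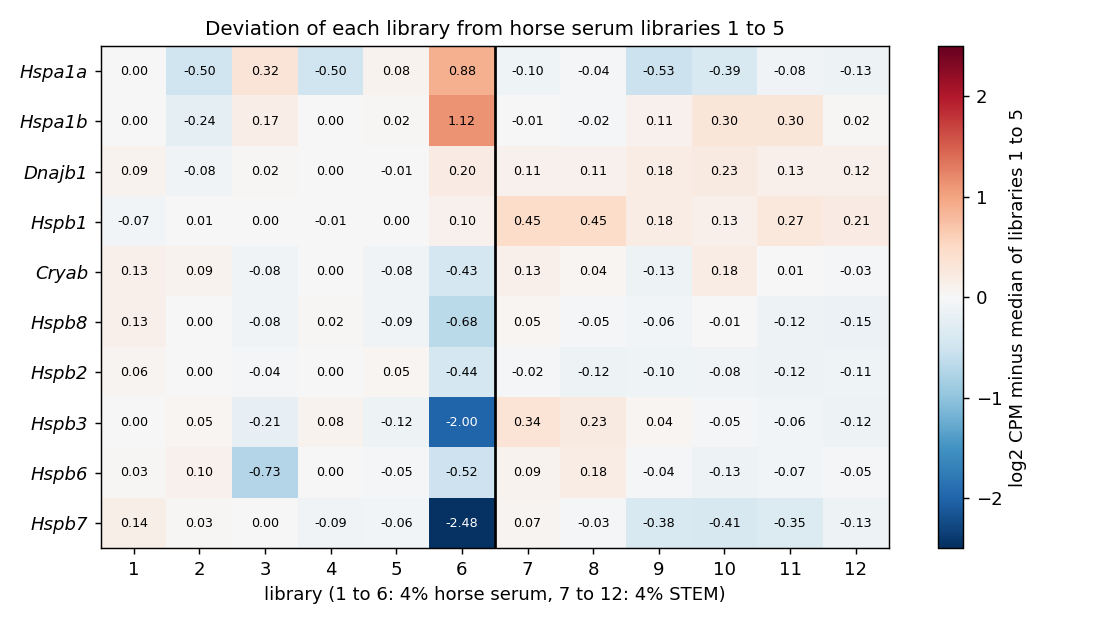
Log2 CPM of each gene in each library minus the median of horse serum libraries 1 to 5 (columns: libraries, red higher, blue lower, the value printed in each cell). Library 6 reaches -2.48 for Hspb7 and 1.12 for Hspa1b, while no STEM library deviates by more than 0.53 in either direction.

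The genes of the set also differed in how they varied over the 12 libraries. As a measure of likeness, the root mean square difference of log2 CPM was taken after centring each gene on its own mean, so that 0 is an identical pattern. The own spread of a gene is the root mean square of its centred values. Differences were 0.0894 between Cryab and Hspb8, 0.0895 between Hspb2 and Hspb8 and 0.102 between Cryab and Hspb2. Their own spreads were 0.156 for Cryab, 0.193 for Hspb8 and 0.126 for Hspb2. Without library 6 the differences were 0.0751, 0.0615 and 0.105, and the own spreads 0.0967, 0.0763 and 0.0616. Cryab and Hspb2 then differed by more than the own spread of either, and Hspb2 and Hspb8 by about the own spread of Hspb2. Hspb3 and Hspb7 lay 0.218 apart and Hspa1a and Hspa1b 0.264 apart, while Hspb7 and Hspa1b were farthest apart at 0.993. Over the 11 libraries without library 6 these were 0.202, 0.276 and 0.305, and the farthest pair was Hspa1a and Hspb6 at 0.426. Hspb3 and Hspb7 then differed by more than the own spread of either (0.154 and 0.180). So did Hspa1a and Hspa1b (own spreads 0.263 and 0.148). Among all genes tested, those like Hspb1 included Fam57a (0.0642) and Tmem132a (0.0712). Those most like Dnajb1 were Bub3 (0.0372), Ldb1 (0.0397) and the Hsp70 and Hsp90 cochaperone gene Stip1 (0.0409), and those most like Hspa1a were Gm4617 (0.197), Rab27a (0.222) and Plscr1 (0.222). The gene most like Hspb7 was Mef2c (0.0798, against an own spread of 0.678 for Hspb7), which was named after its values were seen. Without library 6, Mef2c lay 0.0793 from Hspb7, whose own spread was then 0.180, and 6 other genes were nearer. The genes given for Hspa1a then lay between 0.201 and 0.229 from it, close to its own spread of 0.263, with between 26 and 199 genes nearer. All these differences come from the same libraries.

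Beyond the 10 genes, 75 other genes on lists of chaperone families, their cochaperones and the heat shock factors were examined, of which 72 were tested. With STEM 21 of them rose (29.2%, against 18.9% of all genes tested) and 5 fell (6.94%, against 17.4%), with a median log2 fold change of 0.06. Without library 6, 32 of 72 were called higher (44.4%) and 10 lower (13.9%), against 26.3% and 24.5% of all genes.
Of 11 other Hsp70 and Hsp110 genes, 6 rose and 1 fell, and 7 were higher and 1 lower without library 6. Hsph1, the Hsp110 that exchanges nucleotide on Hsp70, had 29.6 to 37.1 CPM in libraries 1 to 5, 44.3 CPM in library 6 and 51.8, 55.3 and 61.1 CPM as the lowest, median and highest STEM library. All STEM libraries were above all horse serum libraries, and the log2 fold change was 0.68 (SE 0.0862, adjusted p = 3.07e-05 in edgeR). The constitutive Hsp70 gene Hspa8 rose from 1100 ± 64.4 CPM to 1400 ± 39.1 CPM (SD, n = 6; log2 fold change 0.35, adjusted p = 6.55e-05 in edgeR), also without overlap. Hspa4l, another Hsp110, fell from 185 ± 9.42 CPM to 156 ± 6.24 CPM (log2 fold change -0.25, adjusted p = 0.000559).

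Of 16 genes of Hsp90 and its cochaperones, 5 rose and the other 11 did not pass, and without library 6 there were 9 called higher. Those that rose were Ahsa1, the activator of the Hsp90 ATPase (log2 fold change 0.25, adjusted p = 0.000852 in edgeR), Chordc1 (0.22, adjusted p = 0.00246), Hsp90aa1, the stress-inducible Hsp90 (0.21, adjusted p = 0.00463), Hsp90ab1 and Unc45a. Of 15 other J-domain genes, 5 rose and 1 fell, and without library 6 there were 7 called higher and 4 lower. Dnajc5 had a log2 fold change of 0.23 (adjusted p = 0.000224), Dnajb5 of 0.24 (adjusted p = 0.00843) and Dnajb6, a J protein of the Z-disc, of -0.17 (adjusted p = 0.0131).
Of 9 BAG family genes and regulators of Hsp70, Bag2 and Bag3 rose and St13 fell. Bag2 had 41.8 ± 4.79 CPM in horse serum against 59.1 ± 3.55 CPM with STEM (SD, n = 6; log2 fold change 0.50, adjusted p = 9.79e-05 in edgeR). Bag3, the partner of Hspb8, had 12.2 ± 2.73 CPM and 18.3 ± 4.74 CPM (log2 fold change 0.58, adjusted p = 0.0215), with overlap between the groups. Without library 6, 3 of these 9 were called higher and 1 lower. Of 10 chaperonin genes 3 rose (5 without library 6), among them Cct6a (0.29, adjusted p = 7.68e-05) and Cct3 (0.27, adjusted p = 0.00209), and Cct7 fell (-0.23, adjusted p = 0.00195), 1 of 2 called lower without library 6. Of 6 prefoldin genes Pfdn5 fell (-0.37, adjusted p = 0.000772).

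The heat shock factor genes Hsf1, Hsf2 and Hsf4 and the gene of the factor-binding protein Hsbp1 had adjusted p between 0.169 and 0.975 in edgeR. Without library 6, 1 of these 4 was called, Hsf1, which was higher (log2 fold change 0.13, adjusted p = 0.0428 in edgeR). With all libraries Hsf1 had 34.7 ± 2.03 CPM in horse serum and 37.3 ± 2.07 CPM (SD, n = 6) with STEM (log2 fold change 0.10, adjusted p = 0.169 in edgeR). The lens crystallin gene Cryaa and the testis gene Hspb9 had no count in any library, and Hspb11 did not pass with all libraries (-0.15, adjusted p = 0.193) and was called lower without library 6 (-0.22, adjusted p = 0.0134), with all STEM libraries below libraries 1 to 5. Of 12 partners of small heat shock proteins at filaments and the Z-disc, 3 rose and 1 fell, and without library 6 there were 4 called higher and 3 lower. Flnc, the filamin that Hspb7 and Hspb8 attend, had a log2 fold change of 0.28 (adjusted p = 0.0152) and Synpo2l of 0.48 (adjusted p = 0.00268), and Bag3, which stands on both lists, was the third. The intermediate filament gene Vim fell from 2390 ± 140 CPM to 1640 ± 119 CPM (SD, n = 6; log2 fold change -0.54, adjusted p = 7.84e-06 in edgeR), while Des, the desmin client of Cryab, had 1820 ± 181 CPM and 1790 ± 79.0 CPM (-0.02, adjusted p = 0.801).

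**Figure D5:**
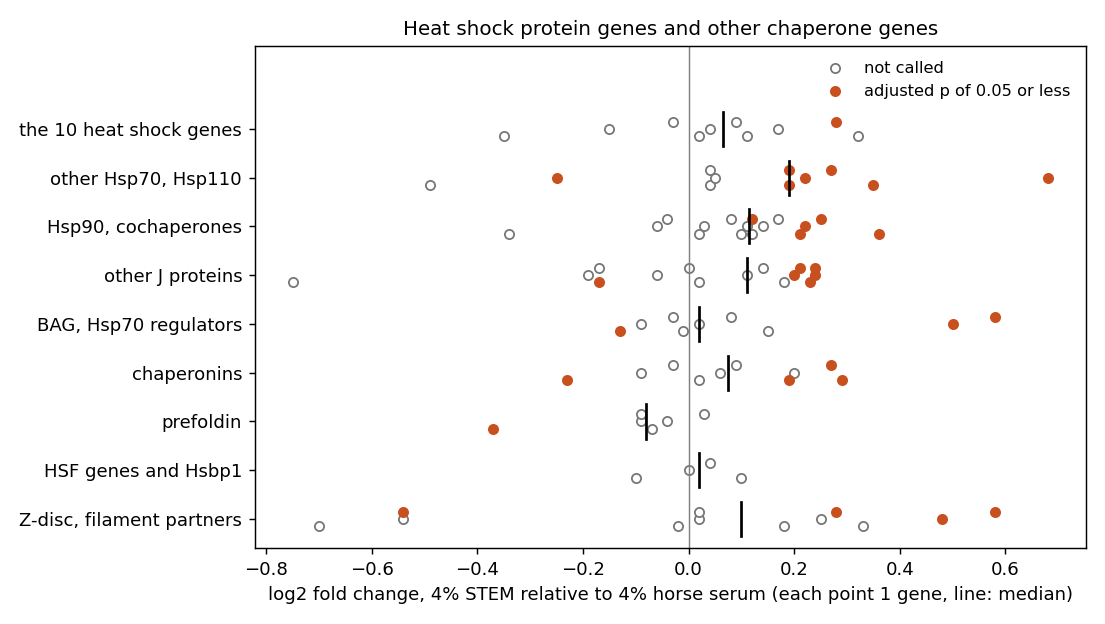
Log2 fold change with STEM (all 12 libraries) of the 10 heat shock protein genes and of the tested genes in 8 chaperone and partner lists, each point a gene, filled where the adjusted p was 0.05 or less, with the median of each list as a line. Hsph1 (0.68) lies farthest to the right, and 1 of the 10 heat shock genes, Hspb1 (0.28), is filled. Of all genes tested, 18.9% were called higher and 17.4% lower.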

How the data were processed

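Raw read counts per Ensembl gene were deposited by the authors for 12 libraries of C2C12 myotubes, without normalization. Libraries were made with a stranded total RNA kit after ribosomal RNA depletion. The submitters' processing notes name STAR 2.7.3a, featureCounts 1.6.3 and DESeq2 1.26.0 and genome build GRCm38. The annotation release, the strand setting and the handling of multiply mapped reads are not given in the sources used here.

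Counts were tested with edgeR 4.0.16 in R 4.3.3 (quasi-likelihood with robust estimation, TMM normalization, filterByExpr), which kept 14175 of 55487 listed genes. P-values were adjusted over all genes tested (Benjamini-Hochberg), with calls at 0.05 or less. CPM used the TMM-normalized library total, and log2 CPM a prior count of 2. Intervals are 95% from the same fit. Levels between genes were compared as CPM per kb of exon union from GENCODE M21. Alternatives were other scalings and filters, DESeq2 1.42.0, limma-voom (limma 3.58.1) with and without library quality weights, and leaving out each library. Levels per kb and likeness without library 6 were added after seeing the data. The edgeR, DESeq2 and limma-voom tests were tried on simulated counts that held no outlying library.

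The members and gene lists were chosen with earlier results of these data known. The text names the 10 members, at most 3 called genes with the lowest p per chaperone list, the 3 most alike genes of the 3 members with the lowest p, and genes overlapping a member. One gene that this rule names is not reported here. Hsp90ab1, Unc45a, Hsf1, Hsf2, Hsf4, Hsbp1, Hspb11, Tubb3, Des and Mef2c lie outside this rule and were named after their values were seen.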

Additional observations from a re-analysis of the deposited data

Results flagged for a closer look

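Within the 6 horse serum libraries, library 6 lay far from the other 5 for 5 of the 10 heat shock genes, by the gap to its nearest neighbour as a share of the whole range of CPM (Dixon's criterion, 95% critical value). The share was 0.821 for Hspb7, 0.781 for Hspb2, 0.761 for Hspb3 and 0.673 for Hspb8, where library 6 was the lowest, and 0.791 for Hspa1b, where it was the highest. No library of the STEM group met the criterion for these genes. Chance flags about 1 in 20 groups, and 20 groups of 6 libraries were examined. The share of all genes tested that meets this criterion was not computed. Over all genes tested, library 6 was above libraries 1 to 5 for 35.8% and below them for 33.1%. The count for the 10 genes is therefore not read as particular to them.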

How the results depend on the processing

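Hspb1 was called higher in every alternative run, with log2 fold changes from 0.18 to 0.31 (adjusted p from 0.000138 to 0.0151) and from 0.23 to 0.31 with each library left out. Library quality weights in limma-voom called 2 of the 10 genes, adding Dnajb1 (0.14, adjusted p = 0.00362), and 43 of the other chaperone genes, where 7320 of all genes were called against 5155 in edgeR. At an adjusted p of 0.01, 3266 genes of all and 15 of the other chaperone genes were called, against 5155 and 26. With each library left out, the number of the 10 genes called ran from 1 to 3, that of the other chaperone genes from 18 to 42 and that of all genes from 4459 to 7245, the highest each time without horse serum library 6. Uncalled log2 fold changes that turned sign were those of Hspb7 (-0.00 with upper quartile factors, -0.14 with quality weights, -0.11 without STEM libraries 7 and 8, an alternative chosen after seeing the data), Hspa1b (0.09 with quality weights) and Hspb8 (-0.02 with quality weights). With each library left out they ran from -0.20 to 0.10 for Hspb7, from -0.23 to 0.13 for Hspa1b and from -0.05 to 0.09 for Hspb8. The median log2 fold change of all genes moved by -0.0202 with upper quartile factors, the most of the 3 other scalings. The low counts of Hspa1a and Hspb6 (34 to 137 and 41 to 128 per library) limit what can be seen for them. No paired analysis was possible because the labels do not say whether any libraries of the 2 groups belong together.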
